A study of Mus musculus with 16 samples.

Results

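Uridine phosphorylase 2 (Upp2) and 7 further genes of pyrimidine salvage, breakdown and synthesis were followed in mouse liver. They were found by symbol among 35275 Ensembl gene IDs, and all 8 (Upp2, Upp1, Dpyd, Dpys, Upb1, Umps, Uck1 and Uckl1) were present. RNA was sequenced from livers of wild-type mice (WT) and of mice with a liver-specific knockout of Zfp36l1 (labelled L1 LKO, here LKO). Each genotype received a control diet or a diet containing ethanol (EtOH), which gave 4 groups of 4 libraries. Zfp36l1 encodes an RNA-binding protein that shortens the life of AU-rich messenger RNAs. The labels used here do not name sex, age, strain, length of feeding or the Cre driver of the deletion. They also do not say that the libraries of a group came from separate animals, so p-values measure the spread between these libraries.

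Pyrimidine nucleosides such as uridine are either salvaged or broken down, and the liver is a main site of both. Uridine phosphorylases split uridine into uracil and a ribose phosphate, and Upp2 is the form known from liver. Uracil is then reduced by dihydropyrimidine dehydrogenase (Dpyd), opened by dihydropyrimidinase (Dpys) and cleaved to beta-alanine by beta-ureidopropionase (Upb1). Uridine-cytidine kinases (Uck1 and the related Uckl1) instead return uridine to the nucleotide pool. Umps makes UMP at the end of the de novo route.

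Values are FPKM, fragments scaled to the length of the gene and to the fragments counted in the library, so they can be compared between genes. Changes are differences of mean log2(FPKM + 1) from a limma fit over all 11298 genes with at least 1 FPKM in at least 4 libraries. SE is the standard error of the fit. A gene was called at a Benjamini-Hochberg adjusted p under 0.05 over all of these genes. All 8 members passed the filter, 7 of them with at least 1 FPKM in all 16 libraries and Upp1 in 10.

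The set is named for Upp2, which was chosen by its lower FPKM with ethanol in LKO livers. Its own changes with ethanol, its interaction and its differences between genotypes draw on those values and are given as a description, without a test. The other 7 were joined to it as genes of the same pathway, with results of these data known.

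WT ethanol library 2 stood apart from the rest. It held 9884479 reads against 19069828 to 24768501 in the other 15, and 22.53% of its reads came from the mitochondrial genome against 3.64 to 6.97%. Its Spearman correlation across genes with the others was 0.67 to 0.716, where the others reached 0.923 to 0.957 among themselves. It was kept, and results that rest on it are given without it as well. The leading component of the variation inside the groups split the other 15: libraries 1 and 2 of each group fell on a side called A here, and libraries 3 and 4 on a side called B. No label names a batch for this, and values within each side are given where they bear on a result. In each of the 8 LKO libraries Zfp36l1 lay at 0.572 to 1.759 FPKM, below the 9.299 to 25.54 of the 8 WT libraries. Hepatocyte markers (Alb, Apoa1, Ttr, Tat, Cps1 and Asgr1) summed to between 42000 and 72800 FPKM in every library. The sum is carried by Alb and Apoa1. In WT ethanol library 2 Apoa1 was at 34500 FPKM, whereas Cps1 was at 36.55 and Asgr1 at 74.52 FPKM, each the lowest of all libraries.

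Upp2 (ENSMUSG00000026839, protein-coding) lies on chromosome 2 from 58567298 to 58792971 on the plus strand of GRCm38. RefSeq lists 2 transcript starts for it, 187850 bases apart, and the deposited values do not separate transcripts from them. The 250 bases before each start are shown because Upp2 moved most of the 8 genes with ethanol in both genotypes. They were taken from RefSeq on GRCm38.p6, plus strand, at chr2:58567084-58567333 for the upstream start and chr2:58754934-58755183 for the downstream start. Capitals mark TATAAA, the core of the TATA box, which begins 29 bases before the downstream start.
Upp2, upstream start: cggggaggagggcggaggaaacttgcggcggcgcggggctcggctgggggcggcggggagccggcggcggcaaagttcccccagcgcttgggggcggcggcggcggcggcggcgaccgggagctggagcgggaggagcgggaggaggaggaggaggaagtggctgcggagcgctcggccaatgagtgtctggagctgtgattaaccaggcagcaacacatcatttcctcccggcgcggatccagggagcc
Upp2, downstream start: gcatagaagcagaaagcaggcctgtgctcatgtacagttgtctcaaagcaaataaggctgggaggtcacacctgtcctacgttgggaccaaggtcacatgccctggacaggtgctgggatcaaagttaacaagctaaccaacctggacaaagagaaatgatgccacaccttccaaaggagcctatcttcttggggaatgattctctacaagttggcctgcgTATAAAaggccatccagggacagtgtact
The window before the upstream start is 73.2% G and C, and that before the downstream start 49.2%. TATAAA was searched after this sequence had been seen. Searched on both strands, it occurred in 12.4% of the 32851 RefSeq windows of the same length, and among the 7 members in that table in those of Upp2 and Umps. Further motifs were searched on both strands in the same windows: the E-box CACGTG (6.02% of all windows), the D-box as TTATGTAA or TTACGTAA (0.931%), the DR1 element, a direct repeat of AGGTCA with 1 base between (0.0335%), and the cAMP element TGACGTCA (1.55%). None of these letters occurred in the windows of the members, and no hits overlapped.

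On the control diet Upp2 was the most abundant member in both genotypes by group mean. In WT it measured 180.8, 257, 56.15 and 213.6 FPKM in libraries 1 to 4, and in LKO 231.2, 421.8, 187.7 and 218.2 FPKM. On the ethanol diet it measured 72.3, 15.05, 35.64 and 12.39 FPKM in WT, and 47.66, 9.805, 44.44 and 37.92 FPKM in LKO. The LKO groups did not overlap. In WT they did, because control library 3, at 56.15 FPKM, lay below ethanol library 1, at 72.3 FPKM. The group means were 176.9 ± 86.32 and 33.85 ± 27.66 FPKM in WT and 264.7 ± 106.3 and 34.95 ± 17.25 FPKM in LKO (SD, n = 4 each). These are ratios of 5.23 and 7.57 of control to ethanol.

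The log2 change of Upp2 with ethanol was −2.49 (SE 0.592) in WT and −3.02 (SE 0.592) in LKO. Leaving out any 1 library gave −2.97 to −2.14 in WT and −3.24 to −2.52 in LKO. Within side A the change was −1.56 in WT and −3.77 in LKO, and within side B −2.32 and −2.27. In WT, side A held a single ethanol library. Between 424 and 28887 reads per library lay behind these values, so counting error was small beside the spread between libraries. Fewer cells that express a gene and less RNA per cell cannot be told apart in bulk liver, for this gene and for all others here.

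**Figure D1:**
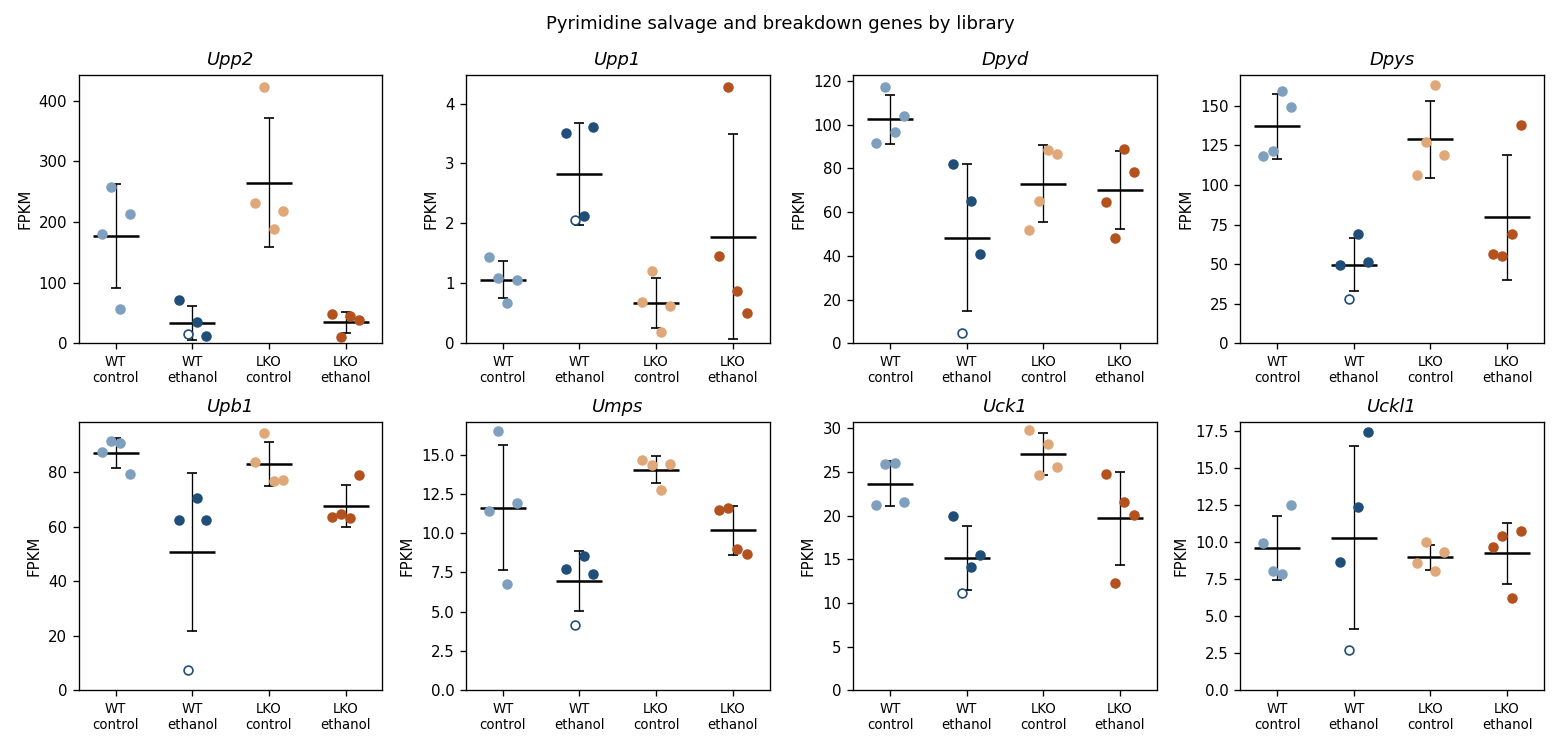
FPKM of the 8 members in every library, by group. Each point is 1 library, the line is the group mean and the bar its SD (n = 4). The open point is WT ethanol library 2. Upp2 lay at 9.805 to 72.3 FPKM on ethanol and at 56.15 to 421.8 FPKM on the control diet.

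Upp1 (ENSMUSG00000020407, chromosome 11, 9118103 to 9136170) encodes the other uridine phosphorylase, which is known from many tissues outside the liver. It was scarce, and its group means were higher on ethanol, where those of Upp2 were lower. In WT it measured 1.437, 1.083, 0.675 and 1.052 FPKM on the control diet and 3.501, 2.059, 2.128 and 3.616 FPKM on ethanol. The WT groups did not overlap, with a ratio of means of 2.66. The change was 0.88 (SE 0.31), but with an adjusted p of 0.12 it was not called. It was called without LKO ethanol library 2, a library outside this comparison that enters the estimate of the spread (0.88, adjusted p = 0.0354). In LKO the means were 0.677 ± 0.415 FPKM on the control diet and 1.777 ± 1.707 FPKM on ethanol, and the groups overlapped (change 0.59, SE 0.31, adjusted p = 0.623). Without LKO ethanol library 2 the change in LKO was 0.22. Each value of Upp1 rests on 6 to 115 reads. The lowest, 0.193 FPKM in LKO control library 3, has an exact Poisson 95% interval of 0.0709 to 0.421 FPKM, which covers counting error only.

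Because Upp1 is so scarce, Upp2 made up most of the uridine phosphorylase transcript in every library. Its share of the summed FPKM of both genes was 98.8 to 99.6% in WT control and 99.7 to 99.9% in LKO control livers. On ethanol it was 77.4 to 95.4% in WT and 69.7 to 98.7% in LKO. The ratio of Upp2 to Upp1 was 83.2 to 237 in WT control libraries and 3.43 to 20.7 in WT ethanol libraries, with no overlap. In LKO it was 336 to 971 on the control diet and 2.3 to 75 on ethanol, again without overlap. These ranges carry the change of Upp2 and have no test of their own.

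LKO ethanol library 2 had both the lowest Upp2 (9.805 FPKM) and the highest Upp1 (4.269 FPKM) of all libraries. The same library had the highest summed neutrophil markers (18.3 FPKM) and Kupffer cell and macrophage markers (315 FPKM), and the highest summed sinusoidal endothelial markers (87.4 FPKM). Of the last, Lyve1 (40.61 FPKM) and Pecam1 (10.72 FPKM) were at their highest there. Clec4g (27.06 FPKM), Stab2 (4.771 FPKM) and Kdr (4.282 FPKM) were each higher in other libraries. LKO control library 2, with a Kupffer cell and macrophage sum of 309 FPKM, had 1.205 FPKM of Upp1, and LKO control library 1, with 273 FPKM, had 0.688 FPKM. WT ethanol library 4, with a sum of 311 FPKM, had 3.616 FPKM of Upp1, and library 3 of that group, with 279 FPKM, had 2.128 FPKM. WT ethanol library 1, with 158 FPKM, had 3.501 FPKM of Upp1, and WT control library 1, with 273 FPKM, had 1.437 FPKM. Over the groups, the 5 neutrophil markers summed to 1.02 to 5.94 FPKM in WT control, 2.11 to 8.07 in WT ethanol, 1.5 to 4.58 in LKO control and 2.42 to 18.3 in LKO ethanol. Of these 5, Ly6g, Mpo and Elane had medians under 0.1 FPKM, and neither S100a8 nor S100a9, the 2 that passed the filter, was called with ethanol in either genotype. The 6 Kupffer cell and macrophage markers summed to 90.4 to 273 FPKM in WT control, 96.3 to 311 in WT ethanol, 90.8 to 309 in LKO control and 53.5 to 315 in LKO ethanol. With ethanol 3 of these 6 had estimates above 0 and 3 below 0 in WT (median 0.08), and 1 above and 5 below 0 in LKO (median −0.56). When WT ethanol library 2 was left out, all 6 were above 0 in WT (median 0.39). Marco was called higher in WT (adjusted p = 0.0379), a call lost in 9 of 16 fits without 1 library. The part of such cells in the level of Upp1 was not tested.

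**Figure D2:**
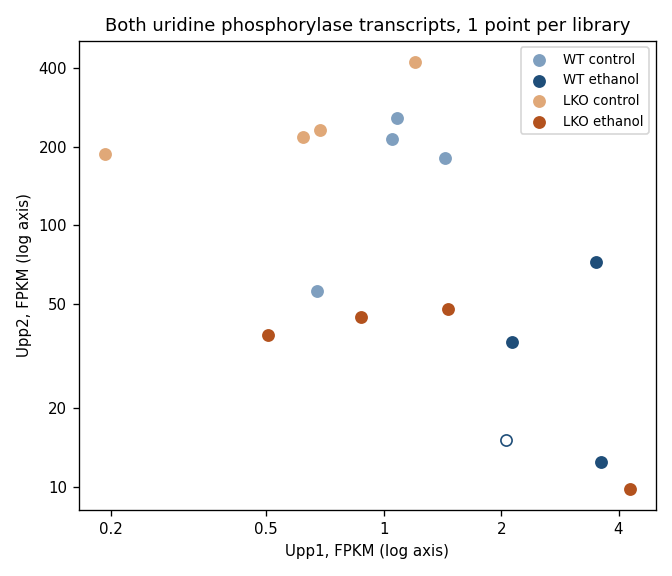
Upp2 against Upp1 in FPKM on log axes, with 1 point per library, coloured by group. The open point is WT ethanol library 2. The ethanol libraries lie at or below 72.3 FPKM of Upp2 and the control libraries at or above 187.7 FPKM in LKO and 56.15 FPKM in WT, and LKO ethanol library 2 is at 9.805 FPKM of Upp2 and 4.269 FPKM of Upp1.

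Of the 3 enzymes that carry uracil down to beta-alanine, dihydropyrimidinase fell with ethanol in WT, while the estimates of Dpyd and Upb1 lay below 0 and did not pass the test. Both were called with the side as a term and without WT ethanol library 2 (adjusted p = 0.0415 and 0.0337), where 19.7% of all genes were. Dpys (ENSMUSG00000022304, chromosome 15, 39768487 to 39857470) measured 118.3, 121.1, 159.1 and 149.3 FPKM in WT on the control diet and 49.56, 28.14, 68.84 and 51.49 FPKM on ethanol. Every ethanol library lay below every control library. The means were 136.9 ± 20.31 and 49.51 ± 16.67 FPKM (SD, n = 4 each), a ratio of 2.77. Dpys fell by 1.5 on the log2 scale (SE 0.322, adjusted p = 0.016). It was lower within both sides, by −1.26 and −1.36. Without WT ethanol library 2 the change was −1.26 (adjusted p = 0.0118), and without WT control library 4 the call was lost (adjusted p = 0.0563), as it was in a fit of the WT libraries alone (adjusted p = 0.0897).

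In LKO the change of Dpys was −0.78 (SE 0.322, adjusted p = 0.451). Ethanol libraries 1 to 3 lay at 55.02 to 68.89 FPKM, whereas library 4, at 137.5 FPKM, was inside the control range of 106.1 to 162.7 FPKM. Without library 4 the change was −1.07 (adjusted p = 0.129). The interaction, that is the change in LKO minus that in WT, was 0.73 with a 95% interval of −0.23 to 1.69 (adjusted p = 0.927), and 0.43 without LKO ethanol library 4. A difference of the response between genotypes was therefore not shown.

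Dpyd (ENSMUSG00000033308, chromosome 3, 118562129 to 119432924) catalyses the first and rate-limiting step of uracil breakdown. In WT it measured 91.54, 117.2, 96.7 and 104.1 FPKM on the control diet and 82.24, 4.891, 65.3 and 40.88 FPKM on ethanol, without overlap. The change was −1.59 (SE 0.574, adjusted p = 0.127). It came to −0.75 (adjusted p = 0.085) without WT ethanol library 2, whose 217 reads of Dpyd gave the lowest value. The change was −2.02, and called, without WT ethanol library 1 (adjusted p = 0.0409). In LKO the means of Dpyd were 73.03 ± 17.59 FPKM on the control diet and 70.13 ± 17.63 FPKM on ethanol, a change of −0.061 (95% interval −1.27 to 1.15), which was 0.1 without LKO ethanol library 2. The interaction of Dpyd was 1.53 (95% interval −0.18 to 3.24, adjusted p = 0.927), and 0.69 without WT ethanol library 2.

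Upb1 (ENSMUSG00000033427, chromosome 10, 75401115 to 75441679) lay in a narrow range on the control diet, at 79.29 to 91.27 FPKM in WT and 76.65 to 94.17 FPKM in LKO. On ethanol the WT libraries measured 62.29, 7.521, 70.39 and 62.52 FPKM, all below the controls. The change of −1.15 (SE 0.483, adjusted p = 0.195) was reduced without library 2, to −0.42 (adjusted p = 0.0943). In LKO the ethanol libraries measured 63.42, 64.47, 63.26 and 78.97 FPKM, a change of −0.29 (SE 0.483, adjusted p = 0.977). Gucd1 lies over Upb1 on the opposite strand without sharing exons.

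Of the kinases that return uridine to nucleotides, Uck1 had lower means with ethanol in both genotypes, and the means of Uckl1 lay close together. Uck1 (ENSMUSG00000002550, chromosome 2, 32255002 to 32260159) had means of 23.69 ± 2.631 and 15.15 ± 3.678 FPKM in WT and 27.08 ± 2.37 and 19.69 ± 5.325 FPKM in LKO, on the control and ethanol diets. Its WT groups did not overlap, and the change was −0.63 (SE 0.243, adjusted p = 0.156), or −0.5 without WT ethanol library 2. In LKO the change was −0.48 (SE 0.243, adjusted p = 0.607), with ethanol library 1 inside the control range, and −0.28 without LKO ethanol library 2. Exons of Pomt1 overlap those of Uck1 on the opposite strand, and whether the counting used strand is not stated.

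Uckl1 (ENSMUSG00000089917, chromosome 2, 181569149 to 181584892) had group means of 8.964 to 10.26 FPKM. Its change with ethanol was −0.1 in WT (95% interval −0.87 to 0.66) and 0.016 in LKO (95% interval −0.75 to 0.78). The sign in WT turned to 0.35 without WT ethanol library 2, and the sign in LKO turned under 4 settings of scaling or weighting and in 5 of the 16 fits without 1 library. Exons of Uckl1 overlap those of Zfp512b on the same strand.

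Umps (ENSMUSG00000022814, chromosome 16, 33954782 to 33967038) joins orotate to a ribose phosphate and removes its carboxyl group. In LKO it measured 14.68, 14.36, 12.75 and 14.39 FPKM on the control diet and 11.48, 11.57, 8.988 and 8.68 FPKM on ethanol. These LKO groups did not overlap, but the change of −0.44 (SE 0.257) had an adjusted p of 0.687. In WT the groups overlapped, since control library 3 was at 6.75 FPKM against 4.179 to 8.557 FPKM on ethanol. The change in WT was −0.64 (SE 0.257, adjusted p = 0.174), and −0.45 without WT ethanol library 2. The antisense gene Gm15829 overlaps exons of Umps and had a median of 0 reads.

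With ethanol in WT, 1 of the 7 members other than Upp2 was called (Dpys, lower), where 4.18% of all 11298 genes were called in either direction and 1.59% lower. The groups did not overlap for 5 of these 7, and for 10.1% of all genes. Their median change was −0.64, against −0.024 over all genes. The 6 hepatocyte markers, of which 0 were called, had a median change of −0.45 in WT, with 5 of 6 below 0, and of −0.36 in LKO, with 4 of 6 below 0. Without WT ethanol library 2 the median in WT was −0.092 for these markers, with 3 of 6 below 0, and −0.45 for the 7 members, with 5 of 7 below 0. Of the 5 stellate cell markers, 3 had estimates above 0 and 2 below 0 in WT, with a median of 0.07, which became 4 above 0 and a median of 0.75 without WT ethanol library 2. Des was the stellate marker called (higher, adjusted p = 0.0296, lost in 5 of 16 fits without 1 library), at 1.169 ± 0.241 and 3.315 ± 1.428 FPKM on the control and ethanol diets. The part of hepatocyte or stellate cell content in the changes of the members was not tested. Without WT ethanol library 2, Dpys was again the member called, beside 9.27% of all genes. With the side added as a term as well, 4 were called (Dpyd, Dpys and Upb1 lower, Upp1 higher), beside 19.7% of all genes. Over all genes the split of calls into higher and lower moved with the scaling: it was 292 to 180 as deposited, 470 to 462 after quantile normalization, 363 to 400 by upper quartile, 379 to 386 by median of ratios, and 133 to 120 when every library was given the same sum. In LKO, 0 of the 7 were called by limma, and 0 by voom, where 0.425% of all genes were called by limma. Of the 7 unadjusted 95% intervals, that of Dpys did not reach 0. Dpys was called in LKO with the side as a term and without WT ethanol library 2 (adjusted p = 0.0236), where 10.8% of all genes were. Without that library alone, the adjusted p of Dpys was 0.105 and 0 members were called, beside 3.67% of all genes. The median of the 7 in LKO was −0.29, against 0.056 over all genes. The groups did not overlap there for 1 of the 7 (Umps), against 12.3% of all genes. Comparisons within a genotype share no libraries with the other genotype, whereas each genotype comparison below shares its libraries with the comparisons above.

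**Figure D3:**
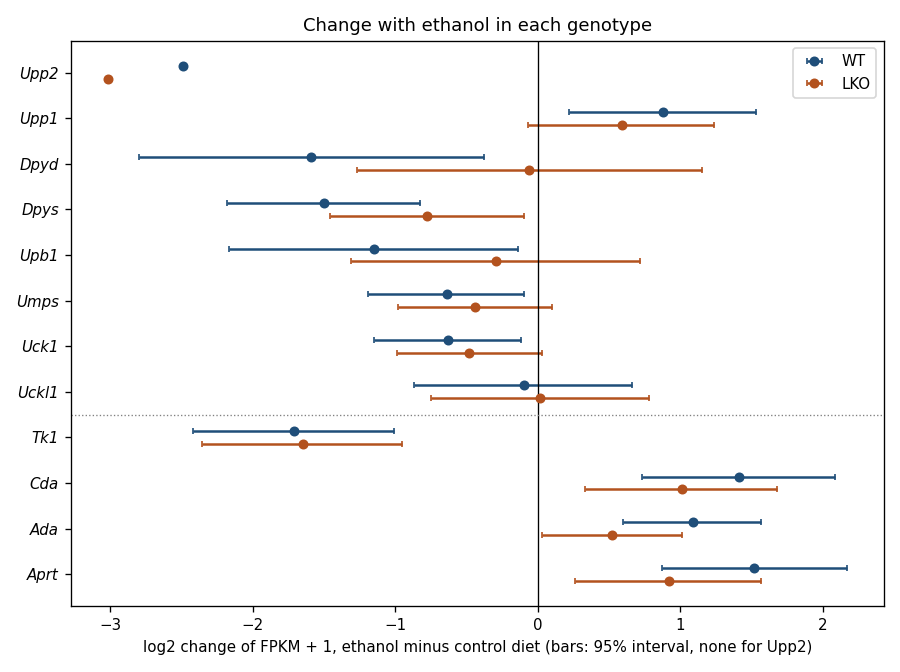
Change with ethanol on the log2(FPKM + 1) scale in WT and LKO, with the 95% interval of the limma fit (none for Upp2, which was chosen by its change), for the 8 members (above the dotted line) and for 4 salvage genes outside the set. Upp2 lay at −2.49 and −3.02 and Dpys at −1.5 and −0.78, while Upp1 lay at 0.88 and 0.59.

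Deletion of Zfp36l1 was compared with WT on each diet, and the 7 members other than Upp2 were counted. On the control diet 0 of these 7 were called by limma, as against 0.00885% of all genes, which is Zfp36l1 itself, and voom called 0 members too. The unadjusted 95% interval reached 0 for all 7. The mean of Upp2 was 0.7 higher in LKO on the log2 scale, a ratio of means of 1.5, with overlapping groups. Without WT control library 3 this difference was 0.23. Dpyd was the member whose groups did not overlap on this diet, with 52.07, 64.95, 88.58 and 86.52 FPKM in LKO against at least 91.54 FPKM in WT. Its difference of −0.51 (SE 0.574, adjusted p = 1) was −0.82 within side A and −0.19 within side B, and 9.25% of all genes did not overlap in this comparison. Over all genes the median difference on this diet was −0.103, and that over the 7 members −0.07.

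On the ethanol diet 0 of the 7 were called, as against 0.0797% of all genes, and 0 by voom. Here too the unadjusted 95% interval reached 0 for all 7. Their median difference was 0.52 and that of the hepatocyte markers 0.5, against −0.031 over all genes. Without WT ethanol library 2 these medians were 0.18 for the 7 members and 0.23 for the markers. For Upp2 the log2 difference was 0.17, with means of 34.95 FPKM in LKO and 33.85 FPKM in WT. The sign of this difference was not stable: it was −1.68 within side A, 0.92 within side B, and −0.088 without WT ethanol library 2. Umps was the member whose groups did not overlap, at 8.68 to 11.57 FPKM in LKO and 4.179 to 8.557 FPKM in WT, where 2.69% of all genes did not overlap. Its difference was 0.52 (SE 0.257, adjusted p = 0.444), and 0.32 without WT ethanol library 2. Dpyd and Upb1 were 1.02 and 0.79 higher in LKO (adjusted p = 0.496 and 0.538), which became 0.18 and 0.049 without WT ethanol library 2.

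The order of Upp2 by group mean was thus LKO control, WT control, LKO ethanol and WT ethanol, and the ranges of neighbours of the same diet overlapped. Its change in LKO minus that in WT was −0.53, and −0.025 without LKO ethanol library 2. Among the other 7 members the interaction was called for 0, as it was for 0 of all 11298 genes (0.0%). By unadjusted p under 0.05, 362 genes passed and 0 of the 7 members, and voom called 0 members.

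Of the salvage genes outside the set, thymidine kinase and cytidine deaminase moved in opposite directions with ethanol. The list held 15 genes, kinases, deaminases and nucleoside transporters together with Tymp, a thymidine phosphorylase, and Uprt, named as a uracil phosphoribosyltransferase. Of these, 10 passed the filter. In WT, 1 rose (Cda) and 1 fell (Tk1), beside 4.18% of all genes called, and in LKO Tk1 fell, beside 0.425%. Tk1 phosphorylates thymidine and is best known from dividing cells. It measured 15.1, 12.46, 15.13 and 22.56 FPKM in WT on the control diet and 2.931, 3.045, 6.929 and 4.656 FPKM on ethanol. In LKO it measured 12.62, 25.22, 11.71 and 13.4 FPKM on the control diet and 3.674, 2.742, 2.97 and 8.594 FPKM on ethanol. Neither pair of groups overlapped.

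Tk1 fell by 1.71 on the log2 scale in WT (SE 0.333, adjusted p = 0.0107) and by 1.65 in LKO (SE 0.333, adjusted p = 0.0364). The call in WT held in all 16 fits that left out 1 library, and was lost in a fit of the WT libraries alone (adjusted p = 0.0511). That in LKO was lost in 9 of the 16 (adjusted p up to 0.17, without LKO ethanol library 2), without a filter (0.109) and with equal sums (0.106). Its interaction was 0.059 (95% interval −0.94 to 1.05), and −0.25 without LKO ethanol library 4. Of the 7 genes of the thymidylate list, 0 were called in either genotype.

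Cda converts cytidine to uridine and so feeds the substrate of Upp2. It rose in WT from 10.36 ± 4.718 to 27.91 ± 8.812 FPKM (SD, n = 4 each), a change of 1.41 (SE 0.321, adjusted p = 0.0213). Without WT ethanol library 2 the change was 1.23 (adjusted p = 0.0228). The WT libraries measured 10.48, 4.459, 16.01 and 10.49 FPKM on the control diet and 22.29, 39.44, 19.91 and 30.02 FPKM on ethanol, without overlap. Leaving out WT control library 1, 2 or 4 or WT ethanol library 4 ended the call (adjusted p up to 0.0742), as did equal sums of FPKM (adjusted p = 0.0556) and a fit of the WT libraries alone (adjusted p = 0.146). In LKO the means of Cda were 6.134 ± 1.644 and 13.33 ± 3.04 FPKM, a change of 1.01 (SE 0.321, adjusted p = 0.241). That change was called with array weights (adjusted p = 0.0407), in a fit of the LKO libraries alone (0.0391) and with the side as a term and without WT ethanol library 2 (0.0306). Leaving out just that library gave Cda an adjusted p of 0.0642.

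**Figure D4:**
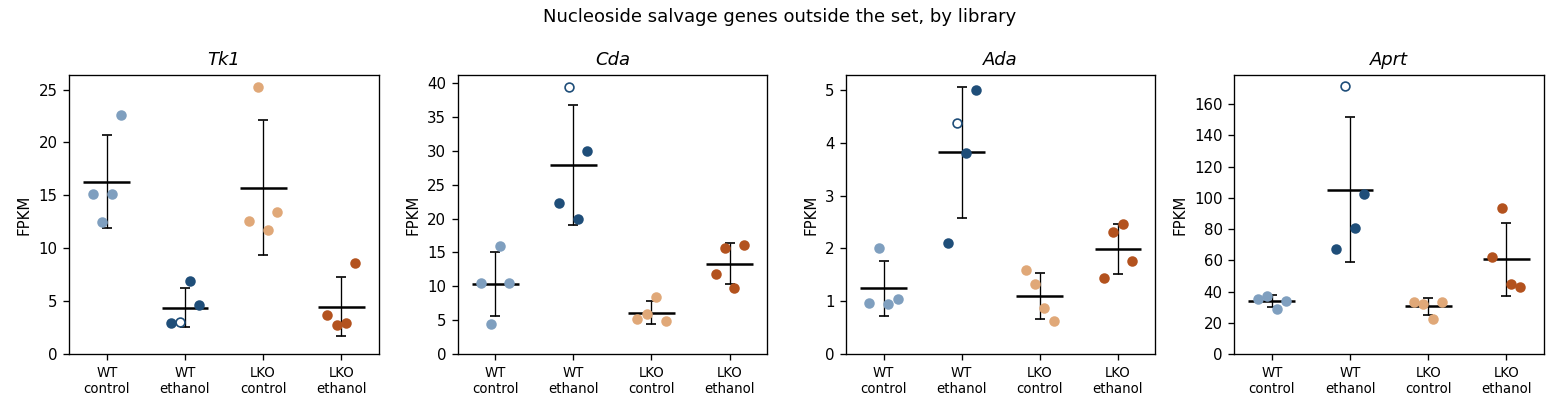
FPKM of Tk1, Cda, Ada and Aprt in every library, by group, with the group mean and SD (n = 4). The open point is WT ethanol library 2. Tk1 lay at 2.742 to 8.594 FPKM on ethanol and at 11.71 to 25.22 FPKM on the control diet.

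Neighbouring pyrimidine lists held no called gene in either ethanol comparison. Of the 5 genes of de novo and CTP synthesis, Cmpk1 was the most abundant, with changes of −0.24 in WT and 0.23 in LKO (adjusted p = 0.818 and 0.991). These were 0.45 without WT ethanol library 2 and 0.03 without LKO ethanol library 2. Ctps, which makes CTP from UTP and is named here after its values were seen, had changes of 1.04 in WT (adjusted p = 0.0518) and 0.97 in LKO (adjusted p = 0.185), without overlap of groups in either genotype. In WT it was called without WT ethanol library 1, WT ethanol library 2 or LKO ethanol library 2. Of the 6 nucleotidases, which release nucleosides from nucleotides, all 6 had estimates above 0 in both genotypes, with medians of 0.64 and 0.43. Nt5c, the most abundant, had changes of 0.95 in WT (adjusted p = 0.0725, or 0.0417 without WT ethanol library 1) and 0.32 in LKO (adjusted p = 0.878), or 0.12 in LKO without ethanol library 2. Its highest value was that of WT ethanol library 2, at 53.84 FPKM against 27.25 to 35.36 FPKM in the rest of that group. Of the 3 enzymes at the end of breakdown, Aldh6a1 had changes of −1.67 in WT (adjusted p = 0.16) and −0.3 in LKO (adjusted p = 0.993). They were −0.65 (adjusted p = 0.0401, called) without WT ethanol library 2 and −0.18 without LKO ethanol library 2. Of the 6 UDP-sugar enzymes, Ugp2 had changes of −0.1 in WT and 0.55 in LKO (adjusted p = 0.929 and 0.869), and the former was 0.45 without WT ethanol library 2.

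Purine salvage was listed for comparison, with 8 of 10 genes tested. In WT, 2 rose and 0 fell with ethanol, beside 4.18% of all genes called, and in LKO 0 were called, beside 0.425%. Estimates in WT lay above 0 for 2 and below 0 for 6 (median −0.48), and for 4 and 4 without WT ethanol library 2 (median 0.17). In LKO 5 lay above 0 and 3 below 0 (median 0.13). Urah, named here after its values were seen, was lower on ethanol in both genotypes without overlap of groups. Aprt, which salvages adenine, rose in WT from 33.94 ± 3.644 to 105.3 ± 46.29 FPKM, a change of 1.52 (SE 0.31, adjusted p = 0.0135). Without WT ethanol library 2 the change of Aprt was 1.26 (adjusted p = 0.00835). Ada, which deaminates adenosine, rose from 1.244 ± 0.514 to 3.818 ± 1.244 FPKM, a change of 1.09 (SE 0.231, adjusted p = 0.0157). Without WT control library 1 or 4 the call of Ada was lost (adjusted p = 0.0575 and 0.0561). In a fit of the WT libraries alone neither Ada (0.106) nor Aprt (0.0897) was called. In LKO the changes were 0.92 for Aprt (adjusted p = 0.279), 0.52 for Ada (adjusted p = 0.5) and −0.85 for Uox, the most abundant gene of the list (adjusted p = 0.527). The change of Aprt in LKO was called without WT ethanol library 2 (adjusted p = 0.0395), with array weights (0.0268) and with the side as a term and without that library (0.0149). No interaction of these genes was called.

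Across the 16 libraries Uck1 followed Upp2 most closely among the members, with a Pearson r of 0.804 on the log2 scale, ahead of Dpys (0.723), Umps (0.72), Dpyd (0.536) and Upb1 (0.517). Uckl1 had an r of 0.068 and Upp1 of −0.618. Outside the set r was 0.807 for Tk1 and −0.831 for Cda. The kept genes most like Upp2 were Nat8f1 (0.921), Slc46a3 (0.907), Inmt (0.905), Kcnk5 (0.901) and Nudt7 (0.896). Inmt, a methyltransferase, had means of 743.4 ± 134.7 FPKM on the control diet and 106.5 ± 87.52 FPKM on ethanol in WT, and 878.9 ± 263.5 and 217.6 ± 87.29 FPKM in LKO. Nudt7, a peroxisomal coenzyme A hydrolase, had means of 33.19 ± 12.83 and 12.71 ± 3.968 FPKM in WT and 62.49 ± 30.62 and 14.25 ± 4.226 FPKM in LKO. Without WT ethanol library 2 the first 5 were Fn3k (0.938), Nat8f1 (0.921), Rab5b (0.914), Sntg2 (0.912) and Slc46a3 (0.903), while r was 0.725 for Upb1 and −0.357 for Uckl1. All points share the diet groups, so these values describe the data and were not tested.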

How the data were processed

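The authors deposited 1 table of FPKM values for 16 libraries, with 1 column per library. Per the submitters' processing notes, the tools were fastp, STAR 2.6.1, HTSeq and DESeq2 and the build mm10; their roles, the annotation and strandedness are not given in the sources used here. Groups came from the treatment labels, and library numbers follow the order of the records and were not used to pair libraries. Symbols and positions are from GENCODE M21 on GRCm38, promoter sequences from RefSeq.

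FPKM values were whole multiples of the worth of 1 read, so reads were worked out for all 24377 genes above 0. For 100.0% of genes above 0 in at least 4 libraries, values lay within 0.01 of a whole read. Totals ranged from 9884479 to 24768501 reads.

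All 16 libraries entered a group-means model of log2(FPKM + 1), for which limma 3.58.1 (eBayes with trend, two-sided) and R 4.3.3 were used. Tested on simulated data for 11298 genes, it called 98.5% of 200 genes changed 4-fold, and 5.9% of its calls in that comparison were of unchanged genes. The simulation gave every gene the same dispersion, with no library of a different profile and no split into sides. Its rates can therefore differ from those in these data. The members and gene lists were chosen with earlier results of these data known. All members were named. From each list, genes called were named, at most 3 per comparison, and otherwise the most abundant gene; 1 result is not reported here. The 5 genes most like Upp2 by Pearson correlation were named, passing over predicted genes and pseudogenes. Alternatives covered the pseudocount, filter, scaling, voom on whole reads, library weights, the libraries fitted and the side of the split.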

Additional observations from a re-analysis of the deposited data

Results flagged for a closer look

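Among 32 groups of 4 libraries (8 members in 4 groups), 4 had a library whose gap to its nearest neighbour took up more of the group's range than Dixon's 95% critical value allows; chance gives about 1 in 20 such groups. Dpys measured 137.5 FPKM in LKO ethanol library 4, against 55.02 to 68.89 FPKM in the other 3. Upb1 stood out in the same library, at 78.97 FPKM against 63.26 to 64.47 FPKM. Upp2 did not, as it measured 37.92 FPKM there, inside the range of its group. Upb1 measured 7.521 FPKM in WT ethanol library 2, against 62.29 to 70.39 FPKM. Umps measured 12.75 FPKM in LKO control library 3, against 14.36 to 14.68 FPKM, a small distance in a narrow group.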

How the results depend on the processing

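Of 343 changes of the 7 members other than Upp2, under settings other than leaving out 1 library, 316 kept their direction and side of the threshold. With ethanol in WT, the number of members other than Upp2 called was 1. It was 4 with array weights (Dpyd, Dpys, Uck1 and Upp1), beside 4334 of all 11298 genes. With the side of the split as a term and without WT ethanol library 2 it was also 4 (Dpyd, Dpys, Upb1 and Upp1), beside 2205 of 11170 genes. That fit alters both choices at once and is called the side fit below. With only the groups compared it was 0, beside 58 of 11298 genes, and Dpys had an adjusted p of 0.0897. Leaving out 1 library gave 0 to 2. In LKO it was 1 (Dpys, adjusted p = 0.0236) with the side fit in place of 0, beside 1205 of 11170 genes. Between genotypes on ethanol it was 1 (Uck1) with array weights in place of 0, beside 3465 of 11298 genes. The cause of these differences was not tested.

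Signs that turned belonged to changes that were not called. Uckl1 turned with ethanol in WT to 0.41 (array weights) and 0.34 (side fit), with ethanol in LKO to −0.044 (quantile), −0.03 (upper quartile), −0.053 (median of ratios) and −0.071 (array weights), and between genotypes to 0.021 (quantile) and 0.055 (median of ratios) on the control diet and to −0.5 (array weights) and −0.39 (side fit) on ethanol. Its interaction turned to −0.48 and −0.33 with array weights and the side fit, and that of Umps to −0.049 and −0.033. With array weights Dpyd turned to 0.14 in LKO, and Upb1 to −0.0016 between genotypes on ethanol. With the median of ratios Dpys and Upb1 turned to 0.039 and 0.06 between genotypes on the control diet. Upp2 turned to −0.17 between genotypes on ethanol with the side fit. Leaving out 1 library, Uckl1 ranged from −0.41 to 0.35 with ethanol in WT, −0.057 to 0.18 in LKO, −0.15 to 0.057 and −0.4 to 0.36 between genotypes, and −0.34 to 0.43 for the interaction. Dpyd in LKO ranged from −0.21 to 0.1, and Upp2 between genotypes on ethanol from −0.18 to 0.68.

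Over all genes, ethanol in WT gave 472 calls, against 283 without a filter, 932 (quantile), 763 (upper quartile), 765 (median of ratios), 253 (equal sums), 4334 (array weights), 58 (only the groups compared), 2205 (side fit) and 145 to 1036 without 1 library. In LKO these were 48, 18, 105, 103, 122, 25, 869, 248, 1205 and 6 to 410. Between genotypes on ethanol 9 became 3 without a filter, 5 (upper quartile, voom), 3465, 3 and 172, and 1 to 390 without 1 library. On the control diet 1 became 2 (quantile), 260, 13 and 8, and 1 to 4 without 1 library. The interaction gave 506 with array weights, in place of 0, and 0 to 6 without 1 library. Upp1 rested on the fewest reads of the members, at 6 to 115 per library. No paired analysis was run, because the labels give no replicate numbers shared between groups. Some titles hold neighbouring numbers across diets, but no label says that these mark pairs; the side fit groups libraries by a split found in the data.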

Other observations

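Genes of the circadian clock and its output, which time much of liver metabolism, were listed as a further set, and 14 of 16 were tested. With ethanol 0 of 14 were called by limma in either genotype, and 11 had estimates below 0 in WT and 10 in LKO, with medians of −0.59 and −0.65. Groups did not overlap for 1 of 14 in WT and 6 of 14 in LKO, beside 10.1% and 12.3% of all genes. Those in LKO went both ways. Arntl was higher on ethanol (0.849 to 2.781 against 0.2 to 0.431 FPKM), as was Clock (4.102 to 5.93 against 1.715 to 2.519 FPKM). Dbp, Tef, Nr1d2 and Ciart were lower. Without WT ethanol library 2 the median in WT was −0.27, with 9 of 14 below 0. Tef, the most abundant of them and an activator that binds D-boxes, had changes of −1.08 in WT (adjusted p = 0.13) and −1.06 in LKO (adjusted p = 0.357), the former −0.69 without WT ethanol library 2. Dbp, a related activator named here after its values were seen, measured 33.01, 56.78, 47.91 and 58.58 FPKM in the LKO control libraries. In the LKO ethanol libraries Dbp measured 2.609, 2.412, 3.013 and 10.99 FPKM. Its change there was −3.31 (SE 0.815, adjusted p = 0.0992, or 0.0241 without WT ethanol library 2). In WT the change of Dbp was −1.54 (SE 0.815, adjusted p = 0.31), and −0.89 without WT ethanol library 2. The WT ethanol libraries measured 1.609, 0.791, 15.93 and 28.14 FPKM, and the last 2 lay inside the WT control range. In WT, Dbp measured 3.51 FPKM in control library 3, against 23.41 to 57.69 FPKM in the other 3, and this is also the WT control library with the lowest Upp2, at 56.15 FPKM. The same library had the highest Arntl of the WT controls (7.194 against 0.289 to 0.379 FPKM). It also had their highest Cry1 (20.73 against 4.419 to 5.381 FPKM) and Nfil3 (24.17 against 2.421 to 6.039 FPKM). The hour at which livers were taken is not given in the labels used here, and its part in these values was not tested.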
